A study of Mus musculus with 88 samples.

Results

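The ventral hippocampus (vHPC) of unstressed mice was compared between 2 inbred strains, DBA/2Crl (D2) and C57BL/6Crl (B6). The control libraries of the vHPC table were chosen by their labels, which gave 12 of the 88 libraries of the series, 6 from D2 and 6 from B6 mice. All were from male mice aged 8 weeks, with 1 library per mouse. Control mice lived beside another control mouse without physical contact during the days on which other mice underwent chronic social defeat stress (CSDS), were housed singly from then on, and were tested for social avoidance as the defeated mice were. The same contrast in control mice of the medial prefrontal cortex (mPFC, 6 D2 and 6 B6) and of the bed nucleus of the stria terminalis (BNST, 5 D2 and 5 B6), and in CSDS-susceptible mice of the vHPC (5 D2 and 3 B6), served to see which differences recurred. D2 and B6 are fully inbred, so a group holds 1 genotype and "strain" covers every allele that separates them.

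The hippocampus is built from the pyramidal cells of the CA fields and subiculum, the granule cells of the dentate gyrus, local interneurons, glia and vessels, and its ventral pole is linked to the amygdala, hypothalamus and prefrontal cortex and to anxiety-like behavior. B6 and D2 mice are the parents of the BXD recombinant inbred panel and differ at very many sites, in copy number of some segments and in the sequence of immune gene families. Whole tissue was sequenced, so that fewer cells of a type and less RNA per cell of that type cannot be told apart in any value below.

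Levels were log2 CPM, with CPM the counts scaled to a fixed library total, as deposited for the vHPC and mPFC. The authors had adjusted these deposited values for library batches with ComBat. Differences are D2 minus B6 on the log2 scale with their standard errors (SE). A gene is called different when its Benjamini-Hochberg adjusted p, from limma for the vHPC and mPFC and from the edgeR quasi-likelihood test for the BNST, was under 0.05.

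Of the 19559 genes in the vHPC table, 11603 (59.3%) were called. D2 was higher for 5911 genes (30.2%) and lower for 5692 (29.1%). With every library centred on its median, 59.7% of the called genes were higher in D2, against 50.9% as deposited, so the balance of the directions depended on the scaling. Most differences were small. The median absolute difference over all genes was 0.23 with a median SE of 0.08. Of the called genes, 73.7% differed by at least 0.25, 38.2% by at least 0.5 and 12.4% by at least 1. At that last size there were 545 genes higher and 899 lower in D2, 7.38% of the genes tested, and at an absolute difference of at least 3 there were 61 higher and 122 lower. The 6 D2 values lay wholly apart from the 6 B6 values for 7179 genes (36.7%), and the first principal component of the 12 libraries held 81.6% of their variance.

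The libraries of the 2 strains were not prepared together. The B6 controls came from 3 library preparation sets and the D2 controls from 4 others, with 0 sets in common, whereas the strains shared 4 sets in the mPFC and 2 in the BNST. Strain and library set therefore cannot be told apart among the vHPC controls alone. Batches had been adjusted with ComBat before the fit, which took the mice as independent. The SE, adjusted p and separation of the groups therefore leave out spread between library sets. A model with library set as a term could be fitted only through the stressed mice. It called 1643 genes (8.40%), 684 higher (3.5%) and 959 lower (4.9%), with a median SE of 0.29, and all 1643 were also called without the term and had the same sign. The lowest value of each library lay between -8.98 and -8.01 in B6 and between -5.68 and -4.92 in D2, so no fold is given for genes near the bottom of the table. D2 replicate 4 was the only control in sequencing set 2.

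Mature oligodendrocytes wrap axons in myelin, and their genes were lower in D2. All 21 measured genes of the oligodendrocyte list were called lower, with 0 called higher and a median difference of -1.11, beside 29.1% called lower and a median of 0.01 over all genes. Their summed level ran from 4253 to 5647 CPM (median 4823) in the B6 mice and from 1698 to 2887 CPM (median 1864) in the D2 mice. The ranges did not overlap, and D2 replicate 2 gave the highest D2 value.

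Among the single genes, Mobp, a myelin-associated basic protein, was between 9.29 and 9.54 log2 CPM in the B6 mice (median 9.36) and between 7.36 and 8.13 in the D2 mice (median 7.52), a difference of -1.79 (SE 0.11), or 3.45-fold lower (adjusted p = 2.8e-13). Mal, a proteolipid of compact myelin, was 3.89-fold lower (-1.96, SE 0.10) and Mag, the adhesion molecule of the innermost myelin layer, 2.8-fold lower (-1.49, SE 0.10). Mbp, a main structural protein of myelin, had a median of 10.09 in B6 and ran from 8.94 to 9.48 in D2 (-0.98, SE 0.10). No D2 value of these genes reached a B6 value. The groups lay apart in 17 of the 21 list genes and in 36.7% of all genes. With library set in the model Mobp (-2.24), Mal (-2.29), Mag (-1.95) and Mbp (-1.47) were still called.

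The myelin difference was also present in the mPFC and absent from the calls in the BNST. In the mPFC 19 of the 21 oligodendrocyte genes were called lower, where 14.4% of all genes were, and the list median was -0.74. The list sum there was 2213 to 3997 CPM in B6 and 1566 to 2131 CPM in D2. Striatal neuron genes gave 3 of 13 lower and 0 higher there (median -0.55). Their sums were 318 to 685.4 CPM in B6 and 294.1 to 515.9 CPM in D2. B6 replicates 2 and 6 of the mPFC had the lowest B6 sums of both lists. D2 replicate 2 of the mPFC had the highest oligodendrocyte and the lowest striatal sum in D2. The part of the dissected piece in this difference was not tested. In the BNST 0 of 21 were called in either direction by edgeR and 0 by DESeq2, where edgeR called 2.51% of all genes, and 2 of the 21 were higher and 0 lower at an unadjusted p under 0.05. The BNST median was 0.47, or 0.60 without D2 replicate 2, the BNST library that stood apart from the other D2 controls. In susceptible vHPC mice 18 of 21 were called lower, where 16.1% of all genes were, with a median of -0.70. With library set in the model 9 of 21 were called lower and the median was -1.46. The genes of oligodendrocyte precursors moved to both sides. Of 15, 7 were called higher and 6 lower, beside 30.2% and 29.1% of all genes in the vHPC controls. Olig2, a transcription factor of the lineage, was higher in D2 (0.49, SE 0.07), and Lhfpl3, a tetraspan membrane protein gene of precursors, was lower (-0.63, SE 0.06).

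**Figure D1:**
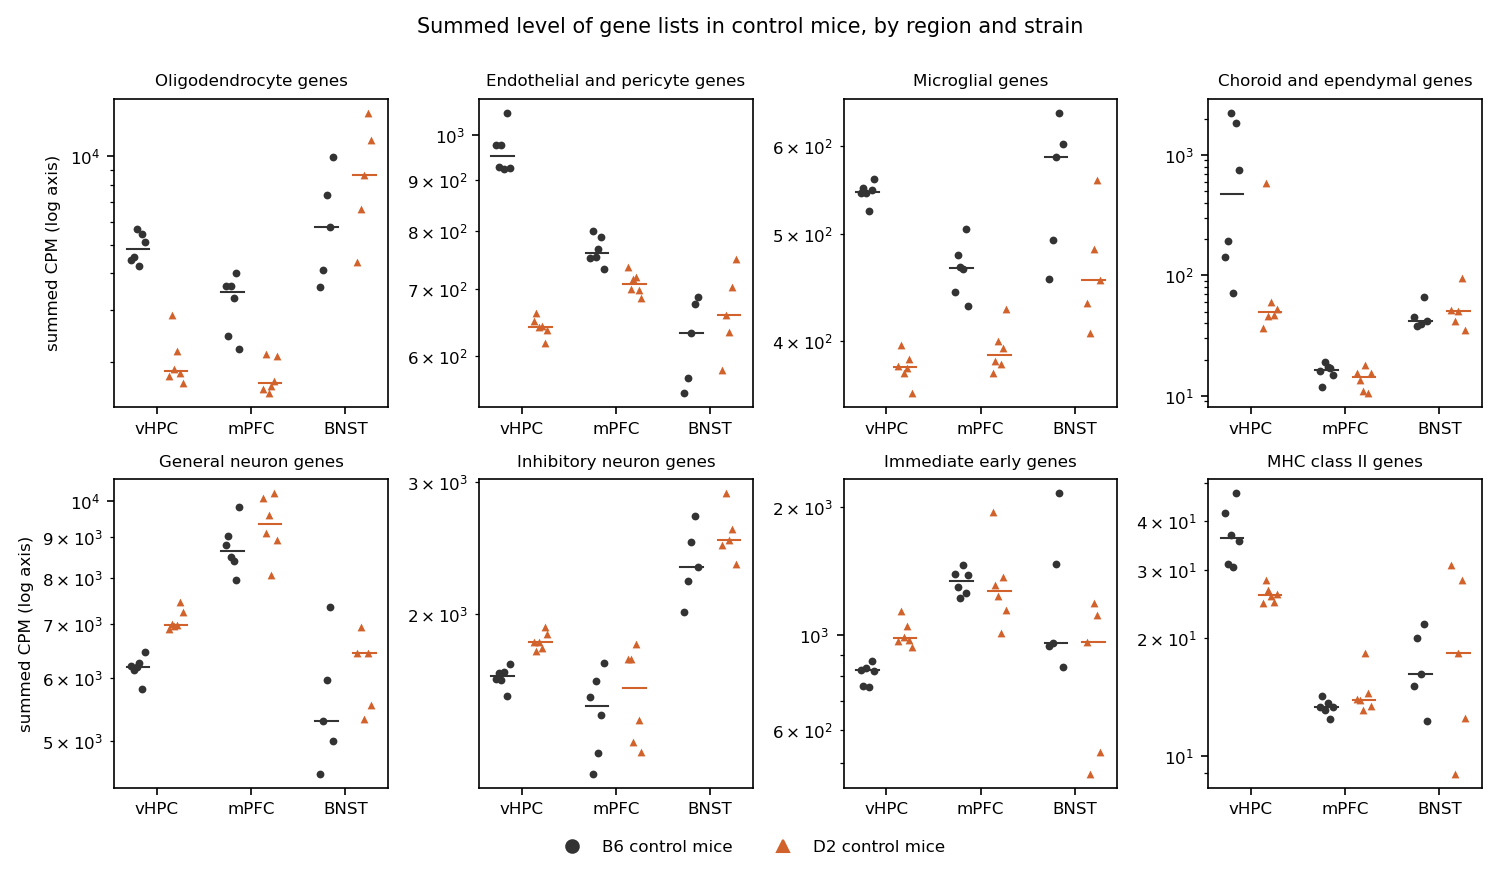
Summed level in CPM (log axis) of 8 gene lists in control mice, with 1 point per mouse, circles for B6, triangles for D2 and a line at the median of the group. In the vHPC the oligodendrocyte, endothelial and microglial sums of the 6 D2 mice lie below those of the 6 B6 mice and the neuronal sums above, while the choroid plexus sums overlap through D2 replicate 2 at 580.2 CPM; the regions were normalized separately and are not compared in level.

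Endothelial cells form the blood-brain barrier and pericytes sheath it. Of the 20 genes of this list 19 were called lower in D2 and 0 higher, with a median of -0.61, beside 29.1% called lower over all genes. The sum lay between 924.2 and 1052 CPM in B6 and between 617.8 and 662.6 CPM in D2. Ocln, a tight junction protein, ran from 4.97 to 5.28 in B6 (median 5.10) and from 4.02 to 4.16 in D2 (median 4.05), 2.03-fold lower (-1.02, SE 0.05, adjusted p = 1.0e-14). Vwf, the von Willebrand factor of endothelial granules, was 3.23-fold lower (-1.69, SE 0.19), Acta2, the actin of arterial smooth muscle, 2.8-fold lower (-1.48, SE 0.18), and Slco1a4, an organic anion carrier of the barrier, 1.67-fold lower (-0.74, SE 0.05). In all 4 genes, which were picked by their score, the groups did not overlap. The same held for 17 of the 20 list genes and 36.7% of all genes. In the mPFC 7 of 20 were called lower (median -0.15), where 14.4% of all genes were. In the BNST edgeR and DESeq2 called 0 (median 0.02, with 1 higher and 2 lower at an unadjusted p under 0.05). With library set in the vHPC model 8 of 20 were called lower, where 4.9% of all genes were, while the median was -0.93.

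Microglia, the resident macrophages of the brain, gave 14 of 18 genes called lower and 1 higher, Aif1, with a median of -0.30. Over all genes 29.1% were called lower and 30.2% higher. Their sum ran from 524.1 to 560.6 CPM in B6 and from 358.4 to 396.1 CPM in D2. The size differed widely within the list. Fcrls, a microglial Fc receptor-like gene, lay between 5.51 and 5.76 in B6 and 2.33 and 3.07 in D2, 7.89-fold lower (-2.98, SE 0.15), and it was also called lower in the mPFC (-2.22) and the BNST (-2.50). C1qb and C1qc, which encode chains of the first complement component, were 3.78-fold (-1.92, SE 0.10) and 2.96-fold (-1.57, SE 0.09) lower, whereas Siglech, a sialic acid-binding receptor, was 1.85-fold lower (-0.88, SE 0.06). Of 3 other members by which microglia are often recognised, Tmem119 was called with a difference of -0.21 and Cx3cr1 with -0.15, and P2ry12 (0.17) was not called.

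Astrocyte genes were mixed, with 11 of 17 called lower and 4 higher and a median of -0.24, beside 29.1% and 30.2% of all genes. Glul, the glutamine synthetase that clears glutamate, was 2.01-fold lower (-1.01, SE 0.05), with values from 10.01 to 10.23 in B6 and from 9.04 to 9.25 in D2. Gfap, the intermediate filament of astrocytes, was 1.96-fold lower (-0.97, SE 0.09). In the mPFC Glul was called lower as well (-0.53), and Gfap was -0.08 with an adjusted p of 0.78 in limma. Kcnj10, the inward rectifier potassium channel of glia, which stood in the potassium channel list, went the other way and was 3.71-fold higher in D2 (1.89, SE 0.11), and it was also called higher in the mPFC (0.99).

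The choroid plexus secretes cerebrospinal fluid and lies in the ventricle beside the hippocampus. Of the 16 choroid plexus and ependymal genes 15 were called lower in D2, with a median of -1.87, beside 29.1% called lower over all genes. The summed level in the B6 mice was 141.8, 191.9, 2231, 72.05, 1828 and 753.1 CPM, and in the D2 mice 36.71, 580.2, 45.75, 60.3, 46.59 and 52.26 CPM. The 4 libraries highest in these genes, B6 replicates 3, 5 and 6 and D2 replicate 2, were at 580.2 CPM or more and the others at 191.9 CPM or less. Ttr, the transthyretin that the choroid plexus secretes, ran from 4.21 to 10.88 in B6 and from 3.26 to 8.84 in D2 (-3.04, SE 1.23). Without those 4 libraries 7 of 16 genes were called lower (median -1.16), and with library set in the model 1 was, with a median of -2.06. In the same setting without the 4 libraries 20 of the 21 oligodendrocyte genes were called lower (median -1.17). In susceptible vHPC mice 3 of the 16 choroid plexus and ependymal genes were called lower (median -0.29), where 16.1% of all genes were. Ccdc153, an ependymal gene, was lower with no overlap between groups (2.42 to 3.13 in B6, 0.09 to 1.02 in D2). Genes of meningeal fibroblasts gave 8 of 13 called lower and 1 higher, and their sums overlapped (284.5 to 422.9 CPM in B6, 279.9 to 350.6 CPM in D2). The part of tissue borders in the other differences was not tested beyond these values.

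Genes common to neurons and genes of inhibitory neurons were in part higher in D2. Of 14 genes common to neurons 9 were called higher and 0 lower, where 30.2% of all genes were called higher, with a median of 0.23. Their sum lay between 5801 and 6456 CPM in B6 and between 6903 and 7469 CPM in D2. The genes called higher included Nefh, the heavy neurofilament (0.56, SE 0.07), and Uchl1, a neuronal ubiquitin hydrolase (0.44, SE 0.05). Of 18 genes of inhibitory neurons 11 were higher and 0 lower (median 0.27), among them Lhx6, a transcription factor of interneurons (0.40, SE 0.06), and the peptides Vip (0.53, SE 0.11) and Npy (0.46, SE 0.11). Of 11 excitatory neuron genes 3 were higher and 0 lower (median 0.13), beside 30.2% and 29.1% of all genes. In the mPFC 2 of 14 general and 2 of 19 inhibitory neuron genes were called higher and 0 lower (medians 0.06 and 0.04). Over all genes 13.4% were called higher there. In the BNST edgeR called 0 of both lists and DESeq2 1 inhibitory gene (medians 0.12 and 0.04). At an unadjusted p under 0.05 edgeR gave 1 general gene higher and 0 lower, and 2 inhibitory genes higher and 1 lower. In susceptible mice the general neuron list gave 4 higher and 1 lower (median 0.04) and the inhibitory list 6 higher and 0 lower (median 0.05). In the model with library set limma called 0 genes of both lists, with 3 general and 1 inhibitory neuron genes higher and 0 lower at an unadjusted p under 0.05. The medians there were 0.26 and 0.14, with a median SE over all genes of 0.29 against 0.08. Gad1, which makes GABA, was 7.90 to 8.13 in B6 and 8.02 to 8.21 in D2 and was not called (0.09, SE 0.05). Slc17a7, the vesicular glutamate transporter of pyramidal cells, was just called (0.15, SE 0.07, adjusted p = 0.046 in limma), and the sign turned with library set in the model (-0.12).

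The genes that mark hippocampal fields did not move as blocks. Their counts stand beside 30.2% called higher and 29.1% called lower over all genes. Prox1, which specifies granule cells of the dentate gyrus, was present in all 12 libraries (5.96 to 6.27 in B6, 5.79 to 6.23 in D2) and was not called (-0.21, SE 0.12). Nevertheless 8 of the 14 dentate genes were called lower and 1 higher, with a median of -0.25 and sums of 685.3 to 757.8 CPM in B6 and 523.5 to 636.4 CPM in D2. In susceptible vHPC mice 4 dentate genes were called lower and 1 higher (median -0.14). With library set in the model 4 were lower and 0 higher (median -0.49). Over all genes 16.1% and 4.9% were called lower in these settings. Tdo2, a tryptophan-degrading dioxygenase of granule cells, was 3.52-fold lower (3.13 to 3.48 in B6, 1.2 to 1.76 in D2), and C1ql2, a secreted protein of mossy fibres, 2.46-fold lower (6.08 to 6.54 in B6, 4.73 to 5.25 in D2). None of the 6 D2 values of these genes reached the B6 range. The groups lay apart in 6 of the 14 dentate genes and in 36.7% of all genes. The CA2 and CA3 genes gave 7 of 13 called lower and 2 higher, with Bok, a BCL2 family member, 1.82-fold lower (-0.86, SE 0.09). The CA1 and subiculum genes gave 4 of 14 higher and 2 lower, Spink8 being lower (-0.54, SE 0.11). Genes that separate the ventral from the dorsal pole gave 7 of 15 higher and 6 lower, with Tox3 higher (0.77, SE 0.08) and Coch lower (-0.89, SE 0.13).

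In the vHPC controls genes of the innate and adaptive immune system were mostly lower in D2. Interferons switch on a common set of antiviral genes through the factors STAT and IRF, which bind an interferon-stimulated response element. Of the 27 measured interferon-stimulated genes 17 were called lower and 3 higher, with a median of -0.44, beside 29.1% and 30.2% of all genes. The promoters of the 3 called lower with the strongest score in this list are shown, from 250 bases before to 50 after the start of the gene, with capitals where GAAA, any 2 bases and GAAA again stood on either strand (RefSeq sequence of build GRCm38.p6, which is that of a C57BL/6J mouse).
Bst2, chr8:71537423-71537722, minus strand: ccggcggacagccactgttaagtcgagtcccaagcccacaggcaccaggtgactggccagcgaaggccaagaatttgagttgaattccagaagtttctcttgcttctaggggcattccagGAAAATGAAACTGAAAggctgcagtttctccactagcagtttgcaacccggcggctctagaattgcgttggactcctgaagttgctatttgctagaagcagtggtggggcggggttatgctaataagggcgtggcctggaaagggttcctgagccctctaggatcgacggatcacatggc
Gbp3, chr3:142559794-142560093, plus strand: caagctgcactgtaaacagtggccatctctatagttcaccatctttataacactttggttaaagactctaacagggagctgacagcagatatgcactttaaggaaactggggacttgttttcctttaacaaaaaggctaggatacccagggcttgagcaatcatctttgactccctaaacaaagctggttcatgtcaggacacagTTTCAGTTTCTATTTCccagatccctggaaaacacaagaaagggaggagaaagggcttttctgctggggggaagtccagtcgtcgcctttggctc
Igtp, chr11:58199306-58199605, plus strand: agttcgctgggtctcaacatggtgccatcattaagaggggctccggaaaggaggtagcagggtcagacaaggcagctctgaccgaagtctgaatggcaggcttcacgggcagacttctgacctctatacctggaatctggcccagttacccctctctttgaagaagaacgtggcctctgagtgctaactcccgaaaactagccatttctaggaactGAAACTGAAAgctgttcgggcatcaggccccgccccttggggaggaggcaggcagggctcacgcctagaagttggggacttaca

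Bst2 and Gbp3 hold 2 overlapping matches each and Igtp 1, all before the start, and those of Gbp3 and Igtp lie nearer to it than those of Bst2. A match was found in 15 of the 22 genes of the list with a window (68.2%), against 1079 of 27025 genes with a window (3.99%). It was found in 9 of 12 list genes called lower, 1 of 3 called higher and 4 of 6 not called, so that genes with the letters stood on every side of the call.

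Bst2, tetherin, which holds budding virus at the cell surface, lay between 1.87 and 3.35 log2 CPM in the B6 mice (median 2.66) and between -0.99 and 0.62 in the D2 mice (median -0.11), 6.95-fold lower (-2.80, SE 0.22, adjusted p = 4.8e-11). Gbp3, a guanylate-binding protein, ran from 2.77 to 3.3 in B6 and from 0.96 to 1.85 in D2, 3.33-fold lower (-1.74, SE 0.14). Igtp, an immunity-related GTPase, ran up to 2.47 in B6 (median 2.3) and from 0.05 to 0.76 in D2, 3.61-fold lower (-1.85, SE 0.18). All 3 were also called lower in the mPFC (-2.20, -0.78 and -1.10) and none in the BNST (-1.29, -0.77 and -0.66). Xaf1, an interferon-induced partner of an apoptosis inhibitor, was 2.1-fold higher in D2 (1.07, SE 0.09), and was also called higher in the mPFC (1.09). For the whole list the mPFC gave 13 of 24 called lower and 1 higher (median -0.38), the BNST 0 of 25 by edgeR and 1 by DESeq2 (median 0.03, with 1 higher and 2 lower at an unadjusted p under 0.05) and the model with library set 3 lower and 1 higher of 27 (median -0.39). In susceptible vHPC mice 8 were called lower and 1 higher (median -0.17). Over all genes 14.4% were called lower in the mPFC, 16.1% in susceptible vHPC mice and 4.9% with library set in the vHPC model.

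The complement list gave 10 of 12 genes called lower and 1 higher, with a median of -0.85, beside 29.1% and 30.2% of all genes. In the mPFC 5 of 12 were called lower and 1 higher (median -0.25). In susceptible vHPC mice 6 were called lower and 1 higher (median -0.54). With library set in the vHPC model 3 were lower and 1 higher (median -0.79). Over all genes 14.4%, 16.1% and 4.9% were called lower in these settings. C1qb and C1qc stand in the microglial list as well. C4a, a near copy of the fourth complement component gene, ran from 0.33 to 0.83 in B6 and from 1.86 to 2.48 in D2, 3.22-fold higher (1.69, SE 0.11), and since it shares sequence with C4b its counts are uncertain.

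Major histocompatibility complex (MHC) genes mostly lie in 1 stretch of chromosome 17 where the strains carry different haplotypes. Of the 22 class I and antigen-loading genes 12 were called lower and 6 higher, and the differences ran from -2.07 to 5.12. Over all genes 29.1% were called lower and 30.2% higher. In susceptible vHPC mice 5 of this list were called lower and 4 higher (median -0.01), where 16.1% and 16.5% of all genes were. The mPFC gave 5 of 22 lower and 3 higher (median -0.07), and the BNST 0 of 18 lower and 2 higher (median 0.06). H2-Q10 was between -6.14 and -3.77 in B6 and between -0.31 and 0.59 in D2, and it was also called higher in the mPFC (5.37). H2-T22 was 2.4-fold lower (-1.26, SE 0.07) and 2.37-fold lower in the mPFC. Of 7 class II genes 4 were lower and 1 higher, H2-DMa. H2-Eb1 ran from 1.27 to 2.43 in B6 and from -3.34 to -1.06 in D2 (-4.05, SE 0.36), and Cd74, the invariant chain of class II molecules, from 1.24 to 2.96 and from -0.65 to 0.54 (-2.59, SE 0.46). In the mPFC neither was called (-0.69 and -0.10). With library set in the model H2-Eb1 was still called (-6.08), and Cd74 was -3.67 with an adjusted p of 0.14. Class I genes are near copies of each other and differ in sequence between the strains, so their counts are uncertain.

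Immediate early genes are transcribed within minutes of neuronal firing. In the vHPC 15 of 21 were called higher in D2 and 0 lower, beside 30.2% called higher over all genes. The median was 0.60, the highest of the lists plotted by median. The sum lay between 757.1 and 869.4 CPM in B6 and between 936.6 and 1138 CPM in D2. Npas4, an activity-dependent transcription factor of neurons, ran from 0.88 to 1.68 in B6 (median 1.35) and from 2.61 to 3.21 in D2 (median 2.91), 3.03-fold higher (1.60, SE 0.17, adjusted p = 9.2e-09). Fosb ran from 0.11 to 0.75 and from 1.97 to 2.54, 3.33-fold higher (1.74, SE 0.13), and Fos from 1.25 to 2.61 and from 2.75 to 4, 2.58-fold higher (1.37, SE 0.21), both being members of the AP-1 family. In these 3 genes every D2 mouse exceeded every B6 mouse. The groups lay apart in 10 of the 21 list genes and in 36.7% of all genes. Jund, another AP-1 member, was 2-fold higher (SE 0.05 on the log2 scale), Egr2, a zinc finger factor, 3.08-fold higher (1.62, SE 0.21), and Arc, a synaptic protein whose RNA travels into dendrites, 1.35-fold higher (0.43, SE 0.15) with overlapping groups.

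The direction was not shared by the other regions. In the mPFC, where 27.8% of all genes were called and 13.4% were higher, 1 gene of the list was called higher, Jund (0.23), and 1 lower, the nuclear receptor Nr4a2 (-0.61), with a median of -0.01. In the BNST edgeR and DESeq2 called 0, with 0 higher and 2 lower at an unadjusted p under 0.05 and a median of -0.52. For Npas4 the mPFC difference was -0.65 and the BNST difference -1.29. In susceptible vHPC mice 10 of 21 were called higher and 0 lower (median 0.36), and with library set in the model 4 of 21 (median 0.82), Fosb and Jund among them. Over all genes 16.5% were called higher in susceptible mice and 3.5% with library set in the model. Genes that neurotrophin signalling and plasticity involve split instead, 7 of 17 higher and 6 lower, beside 30.2% and 29.1% of all genes in vHPC controls. Bdnf, the brain-derived neurotrophic factor, was 1.64-fold lower in D2 (5.5 to 5.63 in B6, 4.78 to 5.05 in D2), and Nptx2, a pentraxin that gathers AMPA receptors, was 2.21-fold lower (4.66 to 5.15 and 3.52 to 4.14).

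Receptor, channel and release genes differed mostly by small amounts. Over all genes 30.2% were called higher and 29.1% lower. Of 28 synaptic vesicle genes 16 were called higher and 1 lower, with a median of 0.19. Bsn, the active zone scaffold bassoon, ran from 8.28 to 8.71 in B6 and from 9.15 to 9.37 in D2, 1.72-fold higher (0.78, SE 0.14). The 1 lower gene was Sv2c, a vesicle glycoprotein, at 5.51 to 5.85 in B6 and 4.26 to 4.43 in D2, 2.45-fold lower (-1.29, SE 0.07), with a mPFC difference of 0.00. In susceptible vHPC mice 1 synaptic vesicle gene was called higher and 1 lower (median 0.02). With library set in the model limma called 0 higher and 1 lower (median 0.20). At an unadjusted p under 0.05 that model gave 3 higher and 1 lower. Of 25 calcium and sodium channel genes 15 were higher and 3 lower, among them Cacna1g, a low-threshold calcium channel, 1.8-fold higher (0.84, SE 0.08). In susceptible mice 7 of these channel genes were called higher and 0 lower (median 0.01). With library set in the model 1 was called higher and 0 lower (median 0.23). The 15 GABA receptor genes split into 5 higher and 6 lower. Gabra2, a subunit of GABA-A receptors, ran from 6.32 to 6.57 in B6 and from 7.80 to 7.98 in D2, 2.79-fold higher (1.48, SE 0.06), and 1.67-fold higher in the mPFC. The 53 potassium channel genes gave 21 higher and 15 lower. Beside the shares over all genes, no shift of the family is read from the GABA receptor or potassium channel counts. Drd2, the dopamine D2 receptor, was higher at a low level (median -0.87 in B6 and 0.75 in D2, with no overlap).

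Stress hormone genes did not share a direction. Over all genes 30.2% were called higher and 29.1% lower. Nr3c1, the glucocorticoid receptor, lay between 7.18 and 7.43 in B6 and between 7.20 and 7.41 in D2 and was not called (-0.05, SE 0.06). Nr3c2, the mineralocorticoid receptor, was called with a small difference (-0.17, SE 0.04). Of 18 glucocorticoid target genes 9 were called lower and 3 higher, with a median of -0.29. Klf9, a zinc finger factor induced by glucocorticoids, ran from 7.61 to 7.71 in B6 and had a median of 7.13 in D2, with no overlap, 1.44-fold lower (-0.53, SE 0.03), and Tsc22d3, the glucocorticoid-induced leucine zipper, was 1.62-fold lower (-0.69, SE 0.08). Neither was called in the mPFC (-0.11 and -0.09). Among 35 neuropeptide and hormone receptor genes 14 were higher and 9 lower. Cartpt, which encodes the CART peptides, was lower by the most (0.97 to 2.01 in B6, -1.62 to -0.45 in D2, -2.38, SE 0.24).

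**Figure D2:**
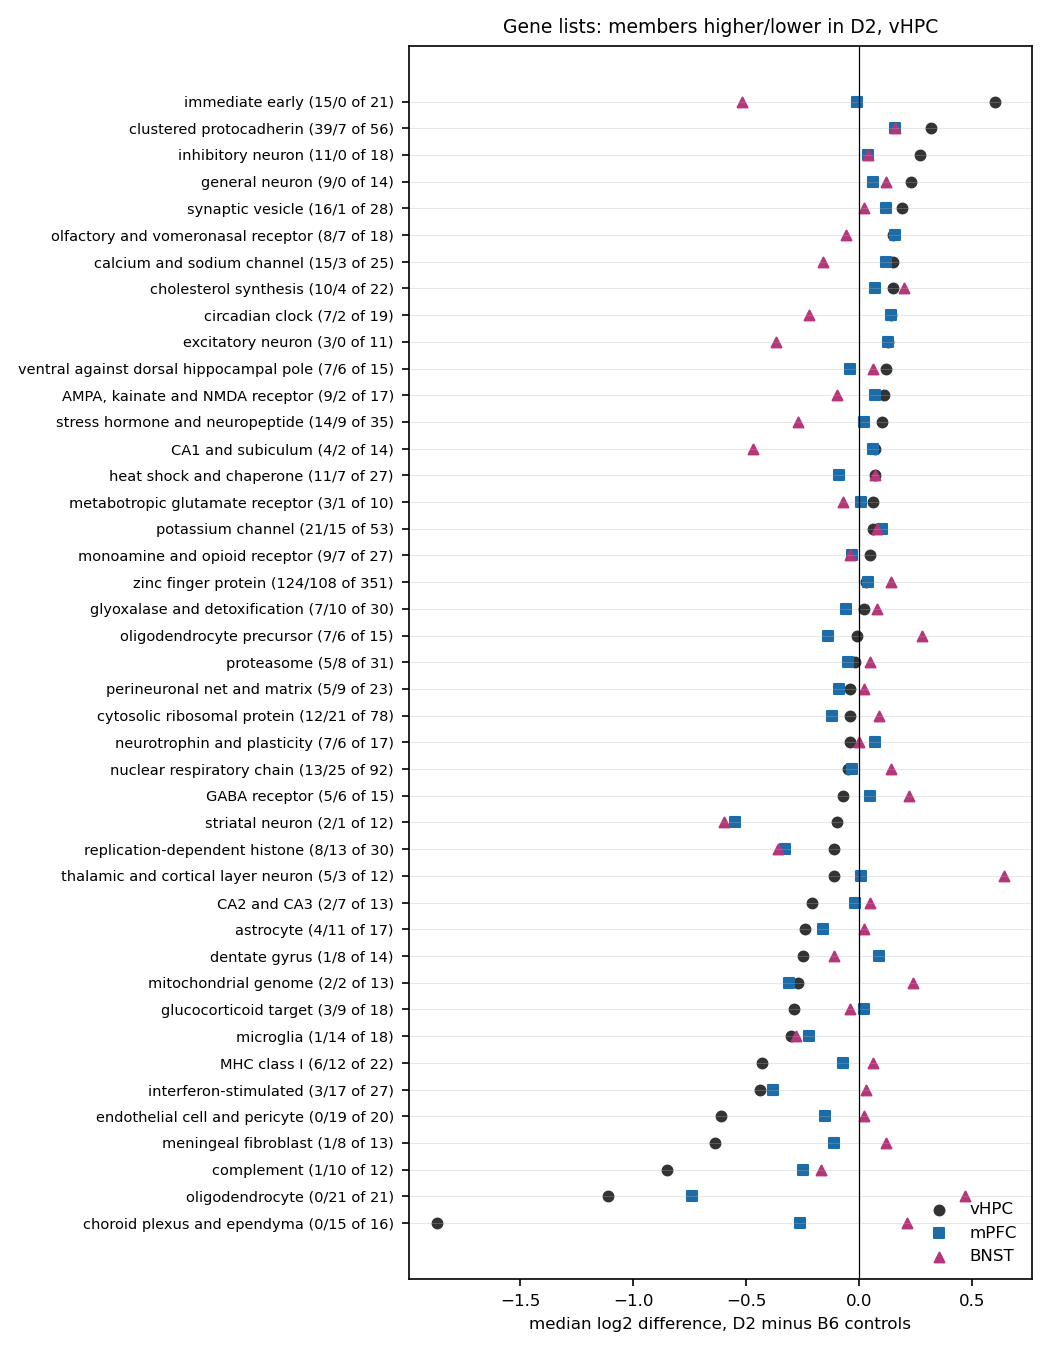
Median log2 difference between D2 and B6 controls (x axis) of gene lists with at least 10 measured genes, ordered by the vHPC value, for the vHPC (circles), mPFC (squares) and BNST (triangles), with the number of members called higher and lower of those measured in the vHPC. Immediate early genes are highest at 0.60 and choroid plexus and oligodendrocyte genes lowest at -1.87 and -1.11; the BNST median of oligodendrocyte genes lies on the other side of 0 at 0.47.

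Clustered protocadherins give each neuron a surface identity and stand in a row on chromosome 18. Of 56 genes 39 were called higher in D2 and 7 lower, beside 30.2% and 29.1% of all genes. Their median was 0.32, with sums of 699.4 to 744.0 CPM in B6 and 839.5 to 879.1 CPM in D2. Pcdhb1 was between -3.64 and -2.67 in B6 and -0.01 and 0.49 in D2, and Pcdhb8 was 2.67-fold higher (1.42, SE 0.08). Pcdhga11 went the other way, 3.11-fold lower (-1.63, SE 0.10). Of the 45 called genes tested in all 3 regions 44 had the same sign in the mPFC and 33 in the BNST. The family shares exons and near-identical stretches, so that counts of single members are uncertain.

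Glo1, glyoxalase, which detoxifies methylglyoxal and lies on chromosome 17 (30584936-30626871, build GRCm38), was higher in D2 in every region. In the vHPC it ran from 4.96 to 5.26 log2 CPM in B6 and from 6.17 to 6.35 in D2, 2.29-fold higher (1.2, SE 0.07), beside 1.75-fold in the mPFC and 1.94-fold in the BNST. Of 11 measured neighbours including Glo1 7 were higher and 1 lower, Saysd1, beside 30.2% and 29.1% of all genes. Hspa8, the constitutive 70-kDa heat shock protein, was 8.4-fold lower in D2 (9.28 to 9.50 in B6, 6.05 to 6.51 in D2), 4.1-fold lower in the mPFC and not called in the BNST (-0.49), and its counts are uncertain because the genome holds many processed copies of it. Wdfy1, a phosphoinositide-binding endosomal protein, was 3.38-fold higher (4.43 to 4.75 in B6, 6.12 to 6.5 in D2).

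The sign of a vHPC difference was then looked up in the other control mice. Of the called genes tested in the mPFC 7885 of 10416 (75.7%) had the same sign there, and of those tested in the BNST 4720 of 9831 (48.0%) did. The BNST share was 55.6% without D2 replicate 2 of the BNST, whose lowest correlation with another D2 control was 0.8331. Among the genes called with library set in the vHPC model the share was 91.4% for the mPFC, 69.7% for the BNST and 65.7% for both. For genes not called in the vHPC the shares were 56.4% in the mPFC and 48.1% in the BNST. Of 9649 called genes tested in all 3 regions 3733 (38.7%) had 1 sign throughout and 1375 (14.3%) had the opposite sign in both other regions. The 3 tables came from 3 library kits, and 3 mice are in both the mPFC and the vHPC controls, so those values are not wholly from separate animals.

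The share with the same sign was larger where the vHPC difference was larger. Among called genes under 0.25 it was 68.8% in the mPFC and 42.3% in the BNST, and from 0.5 to 1 it was 82.1% and 49.8%. From 1 to 2 it was 88.4% and 63.8% over 733 genes, and from 2 to 3 it was 96.5% and 78.9% over 114 genes. At 3 or more it was 97.0% in both over 100 genes. Where a gene was called in 2 regions the signs mostly matched. Of 3728 genes called in the vHPC and the mPFC 3456 (92.7%) had 1 sign, and of 364 called in the vHPC and the BNST 335 (92.0%) did. A total of 6078 called genes tested in all 3 regions were called in the vHPC alone.

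**Figure D3:**
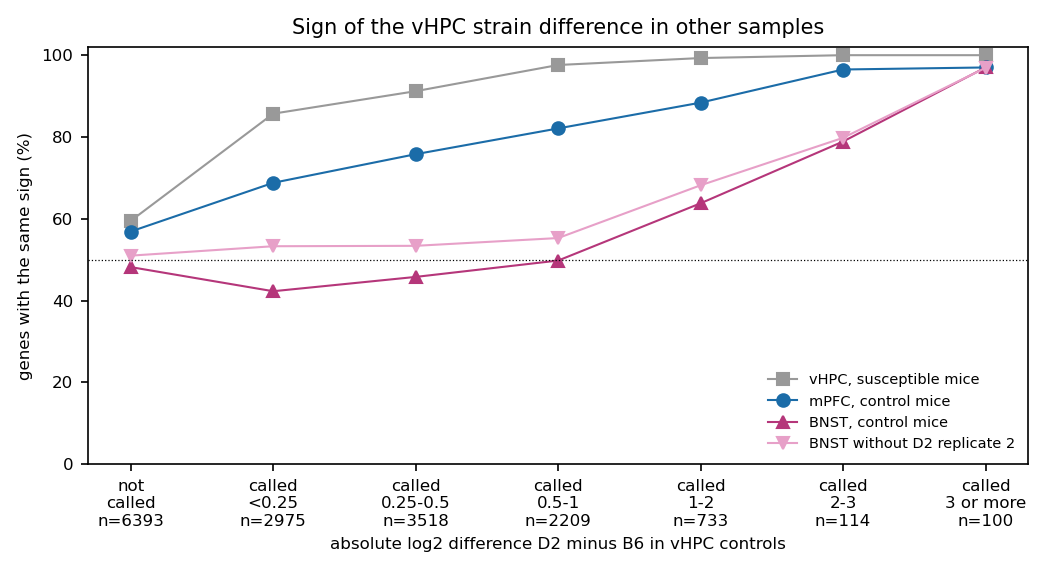
Percent of genes whose strain difference has the same sign as in vHPC controls (y axis), for genes grouped by call and by absolute log2 difference in the vHPC (x axis, with the number of genes), in vHPC susceptible mice, mPFC controls and BNST controls with and without D2 replicate 2. The mPFC share climbs from 56.9% for genes not called to 97.0% for genes that differ by 3 or more; the BNST share lies between 42.3% and 49.8% up to a difference of 1.

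Called in all 3 regions were 309 genes, of which 292 had 1 sign, 120 higher and 172 lower in D2, and 195 of them coded for protein. With library set in the vHPC model 219 of the 292 were still called. Their absolute difference had a median of 1.49 in vHPC, 1.06 in mPFC and 1.81 in BNST controls. The 10 protein-coding genes per direction with the most extreme score, the product of -log10 p and the difference in the vHPC, headed this set.

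Among those higher in D2 was Stab2, stabilin 2, a scavenger receptor for hyaluronan (chromosome 10, 86841198-87008025). It ran from -0.74 to -0.05 log2 CPM in the B6 mice (median -0.36) and from 6.58 to 7.51 in the D2 mice (median 7.23), 181-fold higher (7.50, SE 0.19), 131-fold in the mPFC and 57.5-fold in the BNST. Cfap54, a protein of the ciliary axoneme, ran from 4 to 4.25 and from 6.60 to 7.05, 6.3-fold higher (2.66, SE 0.07). Alad, the second enzyme of heme synthesis, ran from 3.21 to 3.49 and from 5.72 to 6.03, 5.65-fold higher (2.5, SE 0.06). Myo19, a mitochondrial myosin, was 5.94-fold higher (2.57, SE 0.08). In these 4 genes no group overlapped in any region. Prss41, Serpina1b and Lvrn lay near the bottom of the table in B6 (medians -6.31, -6.01 and -4.91) and between 0.04 and 1.76 in D2.

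Among those lower in D2, Rpl29, a protein of the large ribosomal subunit (chromosome 9, 106429454-106431568), ran from 5.76 to 6.19 in B6 and from -1.33 to 0.05 in D2, 98.7-fold lower (-6.63, SE 0.19), 20-fold in the mPFC and 6.41-fold in the BNST. Copies of this gene exist elsewhere in the genome and its counts are uncertain. Fggy, a carbohydrate kinase (chromosome 4, 95557507-95926939), ran from 5.97 to 6.42 and from -1.19 to -0.02, 118-fold lower (-6.89, SE 0.18). Gramd3, a lipid-binding membrane protein, ran from 5.26 to 5.75 and from -1.20 to -0.32, 77.4-fold lower (-6.27, SE 0.18). These were at a level well above the bottom of the table in B6 and every D2 mouse was below every B6 mouse in all 3 regions. Tnni1, the slow troponin I of muscle (3.98 to 4.25 in B6, -3.49 to -2.37 in D2), and Hba-a2, Trim12a, Mndal, Naip6, Zfp984 and Eqtn (B6 medians from 2.39 to 5.44, D2 medians from -5.18 to -3.41) were lower likewise. Hba-a2, Trim12a, Mndal, Naip6 and Zfp984 have near copies in the genome, and their counts are uncertain.

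**Figure D4:**
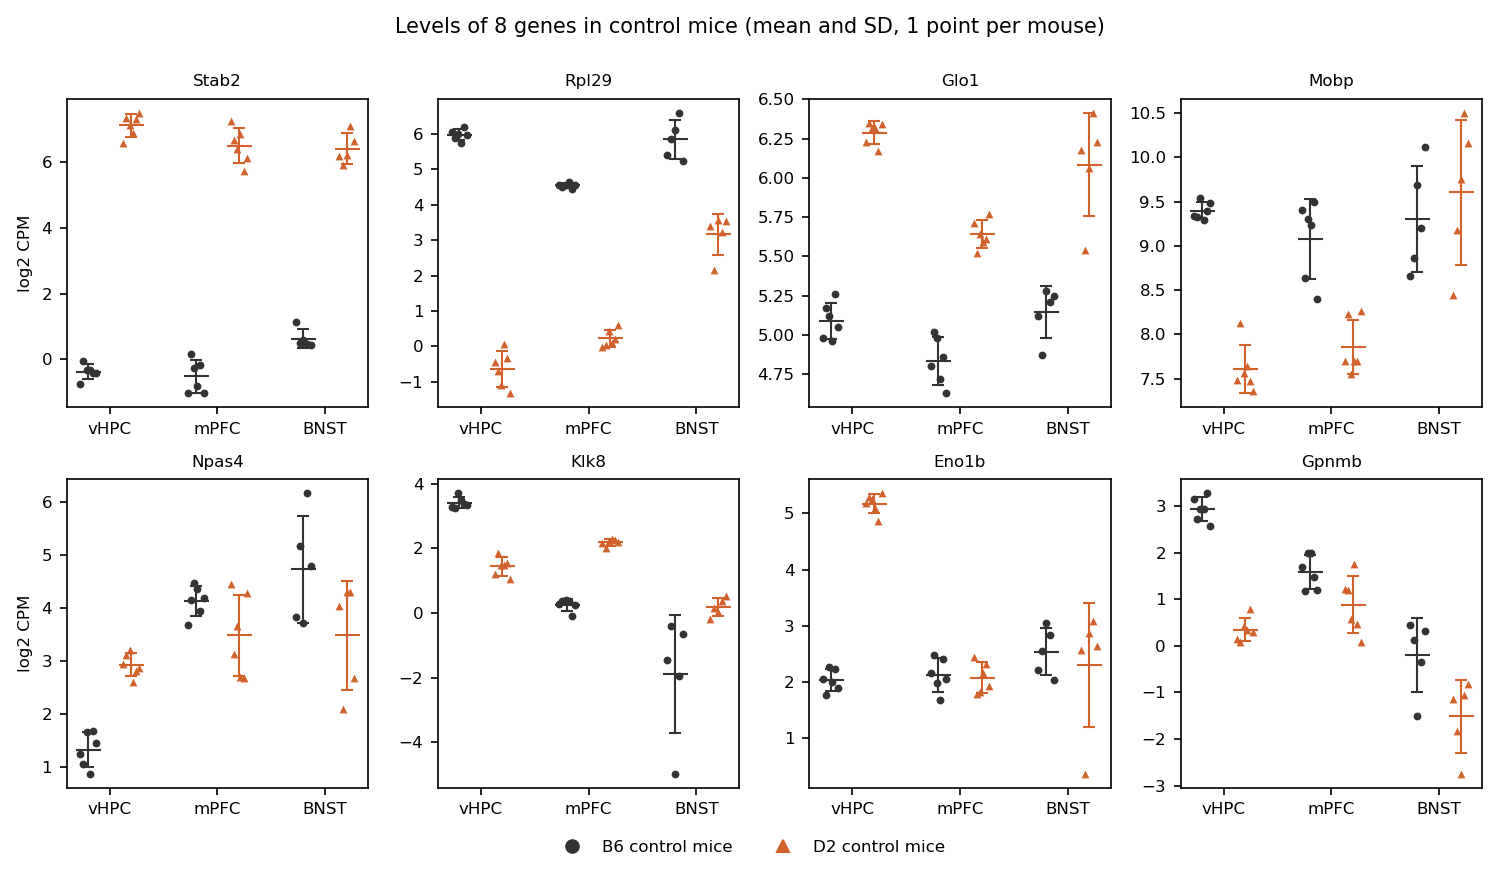
Level in log2 CPM of 8 genes in control mice of 3 regions, with 1 point per mouse, circles for B6, triangles for D2, and the mean with its SD. Stab2, Rpl29 and Glo1 differ in one direction in all 3 regions, Klk8 is lower in D2 in the vHPC and higher in the mPFC, and Eno1b differs in the vHPC (8.86-fold) with overlapping groups in the mPFC and BNST.

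Other differences were called in the vHPC and not in the mPFC or BNST. Eno1b, an enolase copy (1.76 to 2.27 in B6, 4.87 to 5.36 in D2), was 8.86-fold higher (SE 0.09 on the log2 scale), against -0.05 in the mPFC and -0.03 in the BNST, and its reads may be shared with Eno1. Col11a1, a fibrillar collagen chain (3.19 to 3.54 and 5.05 to 5.67), was 4.27-fold higher (2.09, SE 0.09), against -0.13 and 0.21. Bfsp1, a beaded filament protein of the lens, was 9.68-fold higher (3.28, SE 0.15), against 0.34 and -0.48. Gpnmb, a glycoprotein of phagocytes (2.57 to 3.27 and 0.09 to 0.78), was 5.99-fold lower (-2.58, SE 0.15), against -0.70 and -1.37, so it had 1 sign in all regions without a call in the others. Cd38, an NAD-consuming ectoenzyme (4.2 to 4.46 and 2.46 to 2.83), was 3.16-fold lower (-1.66, SE 0.09), against -0.15 and 0.34. Tubb6, a beta tubulin, was 3.36-fold lower (-1.75, SE 0.08), against 0.18 and 0.68, and Ebf3, a transcription factor of Cajal-Retzius cells among others, 16.4-fold lower (-4.03, SE 0.30), against -0.37 and -0.95. A missed call in the mPFC or BNST does not show that a gene was equal there, and the median SE was 0.09 in the mPFC and 0.26 in the BNST.

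A small set changed sides between regions. Opposite calls were found for 272 genes between the vHPC and the mPFC and for 29 between the vHPC and the BNST. Klk8, neuropsin, a serine protease of the hippocampus (chromosome 7, 43797577-43803826), ran from 3.26 to 3.70 in B6 and from 1.05 to 1.85 in D2 in the vHPC, 3.92-fold lower (-1.97, SE 0.14). In the mPFC it ran from -0.10 to 0.39 in B6 and from 2 to 2.3 in D2, 3.81-fold higher (1.93, SE 0.11), and in the BNST the difference was 1.54 (SE 0.57) and was not called. P2rx5, an ATP-gated channel (-1.66 in the vHPC, 0.77 in the mPFC), Hunk, a kinase (-1.25 and 0.39), and Dgkh, a diacylglycerol kinase (-0.90 and 0.27), were called in the same way. Against the BNST, H2-T24 was lower in the vHPC (-2.07) and higher in the BNST (1.07), and Adgrg6, an adhesion receptor, -1.17 and 1.65.

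The vHPC of susceptible mice gave 6389 called genes (32.7%), 3234 higher (16.5%) and 3155 lower (16.1%). Of the genes called in controls 92.3% had the same sign in susceptible mice, and all 5725 called in both did. The 2 contrasts share the fit but no mouse. Strain was largely tied to library set in susceptible mice too, since only 1 set held both strains. With library set in the model 739 genes were called in susceptible mice. The part of library set in the matching signs was not tested. Over the 292 genes called in all regions the susceptible difference was 0.774 of the control difference at the median (quartiles 0.711 and 0.854), and smaller in 267. These genes were chosen by their calls in the controls, which by itself favours a smaller difference in susceptible mice. Tested directly in limma, the strain difference itself differed between susceptible and control mice in 153 genes, with 3600 at an unadjusted p under 0.05. The strains shared 1 library set among the susceptible mice and 0 among the controls. Stress and library set therefore cannot be told apart in this contrast.

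The called genes were spread over all classes looked at. The share called was 57.6%, 59.8%, 59.6% and 60.3% in 4 equal classes of mean level from lowest to highest, whereas the share called with a difference of at least 1 went from 17.2% to 1.2%. Of protein-coding genes 60.9% were called, of long intergenic noncoding RNA genes 61.7% and of processed pseudogenes 51.0%. Noncoding genes were among the strongest higher in D2. Rprl3, a ribonuclease P RNA-like gene, was between -6.09 and -3.95 in B6 and 5.93 and 7.98 in D2, and Rps15a-ps8, a ribosomal protein pseudogene, between -7.75 and -6.81 and between 1.72 and 2.92. In 252 windows of 10 Mb with at least 20 genes the share called ran from 32.4% to 83.3% (median 59.0%), and the share with a difference of at least 1 from 0 to 23.8% (median 6.31%), highest at 110 to 120 Mb of chromosome 1.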

How the data were processed

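RNA was depleted of ribosomal RNA and made into libraries with Nextera (vHPC), ScriptSeq v2 (mPFC) or Ovation (BNST). Per the methods the authors trimmed reads, removed duplicates, aligned with STAR to GRCm38 and counted on exons with HTSeq. Both strains were aligned to this C57BL/6J-derived reference, and the part of that in the values was not tested. The authors deposited log2 CPM for the vHPC and mPFC, filtered, passed through voom and adjusted for library (and in the vHPC sequencing) batches with ComBat. These tables hold no counts, and the read numbers that the study lists per library were not used here. For the BNST the deposited values were raw counts (12389258 to 16362207 reads per control library).

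Groups came from the labels. Fits used all libraries of a region with a mean per group: limma 3.58.1 robust empirical Bayes on log2 CPM (19559 and 18946 genes), and edgeR 4.0.16 robust quasi-likelihood with TMM on 17515 BNST genes that reached 1 CPM in 6 or more libraries, all two-sided. Both were tested on simulated data, where 96% (vHPC), 89% (mPFC) and 38% (BNST) of 200 genes shifted by 1 on the log2 scale were recovered, with 12, 11 and 0 unchanged genes called. The simulated libraries were independent, with no library-set effect and no ComBat step. They could therefore not show calls that come from library sets. Members and the 47 gene lists were chosen with earlier results of these data known. Genes were named by score (-log10 p times difference): the 10 highest and lowest called in all regions, 5 and 5 called in the vHPC only, 5 opposite in each other region, up to 4 per list, 3 and 3 noncoding genes, and a fixed set that included Glo1, Gfap, Prox1 and Bdnf. Aif1, Arc, C4b, Cx3cr1, Eno1, Fos, H2-DMa, Nr4a2, P2ry12, Saysd1, Tmem119 and Ttr were named after their values were seen. List sums are sums of 2 to the power of log2 CPM. The separate mice are the replicates. Alternatives covered tools, filters, scaling, batch terms and left-out libraries. Some single genes of the lists are not reported here.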

Additional observations from a re-analysis of the deposited data

Results flagged for a closer look

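Single libraries lay apart from their group of 6, judged by the gap to the nearest library over the range of the group. Chance would give this in about 1 of 20 groups, and it was seen in 1 of 24 groups of list sums and 8 of 212 groups of gene values. D2 replicate 2 of the vHPC had a choroid plexus and ependymal sum of 580.2 CPM, with Ttr at 8.84, Folr1 at 1.81 and Slc4a5 at 2.31 log2 CPM. D2 replicate 4, the library of the other sequencing set, was low in Vip (4.55) and Spink8 (3.41). D2 replicate 5 was low in Lvrn (0.04) and Col11a1 (5.05), and D2 replicate 6 high in Bsn (9.37).

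The strain difference in the vHPC itself differed between susceptible and control mice in 153 genes by the interaction term in limma. In susceptible minus control terms on the log2 scale it was smaller for genes higher in D2, Stab2 (-1.92), Prss41 (-2.21), Rps15a-ps8 (-2.25), Eno1b (-0.67), Cfap54 (-0.62), Myo19 (-0.62), Tox3 (-0.52), Alad (-0.51) and Gabra2 (-0.50). It was likewise closer to 0 for genes lower in D2, Zfp984 (2.35), Eqtn (2.2), Hba-a2 (2.11), Naip6 (1.78), Fggy (1.76), Gramd3 (1.48), Tnni1 (1.46) and Rpl29 (1.37). The same held for Hspa8 (0.86), Mal (0.78), Mobp (0.75), C1qb (0.69), Gsn (0.68), C1qc (0.67), Tubb6 (0.51), Ocln (0.44) and Glul (0.37). Each of these had the same sign in both kinds of mice. The genes followed were named by their score in the controls, which by itself favours a smaller difference in susceptible mice. Library sets differed between the kinds of mice as well, so stress and library set cannot be told apart here.

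Klk8 was lower in D2 in every vHPC library and higher in every mPFC library, where the difference was 1.93. The difference between the regions was not tested.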

How the results depend on the processing

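The count of vHPC genes called moved most with library set in the model (1643) and with a minimum absolute difference of 1 (1444), and lay between 11077 and 11375 with any 1 control left out. Genes with the same sign in the mPFC then numbered 1337 (91.4%) and 1002 (89%) (7550 to 7723 with a vHPC library left out, 7725 to 7939 with an mPFC library), in the BNST 949 (69.7%) and 691 (68.3%) (4517 to 4634, and 4486 to 5452 with a BNST library left out, the highest without D2 replicate 2), and in both 872 (65.7%) and 613 (64.7%) (3591 to 3668, 3672 to 3779 and 3556 to 4251). In susceptible mice 739 genes were called with library set in the model and 4809 to 6096 with a library left out. The BNST gave 660 calls in DESeq2, 87 with controls alone and 337 to 558 with a library left out, and the mPFC 4520 to 5490. Genes called in 1 direction in all regions fell to 74 with BNST controls alone and ranged over 289 to 292, 282 to 290 and 240 to 314 with a vHPC, mPFC or BNST library left out. With library set in the model 78 of the 106 single genes followed kept sign and call, 26 lost the call, and 2 turned, Nr3c1 (0.19) and Slc17a7 (-0.12). Nr3c1 was 0.00 with median centring and without the 4 libraries highest in choroid plexus genes, an alternative chosen after seeing the data. The MHC class II median was 0.17 among genes with a mean log2 CPM of at least 1. The cause was not tested. No paired analysis was possible because a mouse has 1 strain and the replicate numbers name mice without tying them across strains.

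The vHPC and mPFC tables hold no counts, so counting error was not set beside low values, and the BNST fit recovered 38% of simulated differences of 1 on the log2 scale.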

Other observations

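Other gene groups of the vHPC controls had members called on both sides, where 30.2% of all genes were called higher and 29.1% lower. Zinc finger protein genes gave 124 of 351 higher and 108 lower in D2, and predicted genes 1119 of 3903 higher and 972 lower. Cytosolic ribosomal protein genes gave 12 of 78 higher and 21 lower, nuclear genes of the respiratory chain 13 of 92 higher and 25 lower, and proteasome genes 5 of 31 higher and 8 lower. Genes of cholesterol synthesis gave 10 of 22 higher and 4 lower, circadian clock genes 7 of 19 higher and 2 lower, heat shock and chaperone genes 11 of 27 higher and 7 lower, and perineuronal net and matrix genes 5 of 23 higher and 9 lower.

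Replication-dependent histone genes gave 8 of 30 higher and 13 lower, with a median of -0.11 in the vHPC and -0.33 in the mPFC. Ionotropic glutamate receptor genes gave 9 of 17 higher and 2 lower, metabotropic ones 3 of 10 higher and 1 lower, and monoamine and opioid receptor genes 9 of 27 higher and 7 lower. Genes that mark striatal neurons (2 of 12 higher, 1 lower) and thalamic or cortical layer neurons (5 of 12 higher, 3 lower) were also measured. Glyoxalase and other detoxification genes gave 7 of 30 higher and 10 lower, olfactory and vomeronasal receptor genes 8 of 18 higher and 7 lower, mitochondrially encoded genes 2 of 13 higher and 2 lower, and blood genes 1 of 5 higher and 1 lower.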
